A study of Rattus with 18 samples.

Results

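The genes described here are 44 genes of the interferon response and of antigen processing for MHC class I, chosen by name: the array probes whose gene name is one of the 44. Of these, 43 had a probe on the array (Irf8 had none), and 41 passed a filter on dim probes, among 23212 genes and transcripts tested in all. The glomerulus, the filtering tuft of the kidney, was profiled in SD rats, with RNA on 18 single-colour Agilent arrays, 3 for each of days 0, 1, 2, 3, 4 and 5. The day 0 rats received saline and are the normal controls; the rats of days 1 to 5 were injected with anti-Thy1 antibody, which binds mesangial cells, and were killed on the day named. The agent is the same on all 5 treated days, and the controls received no antibody. Per the design text, each time point drew on 6 rats and 3 glomeruli per rat, but no label ties an array to its rats. The p-values therefore reflect only how far arrays of a day differ, which may be technical.

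Interferons are secreted signals of infection and inflammation. Type I interferons and interferon gamma act through receptor-bound Jak kinases on transcription factors such as Stat2 and Irf9, which switch on genes for antiviral enzymes, GTPases and the Irf factors themselves. Interferon gamma in particular induces the immunoproteasome, whose exchanged subunits cut proteins into peptides that Tap1 and Tap2 carry into the endoplasmic reticulum for loading on MHC class I with B2m. Socs1 is induced by the same signals and blocks the Jak kinases.

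Each member was read by a probe of 60 bases. The probes below are those of members that stand for the main patterns: the immunoproteasome (Psmb8) and its activator (Psme2), a ubiquitin-like interferon target (Isg15) and the inhibitor of the pathway (Socs1). Samhd1 is shown with its second probe, whose values differed, and Ifi44 with its probe 3, which lies 7 bases from the probe used and reads nearly the same sequence. The sequences are copied from the deposited array files, 5′ to 3′; positions are on rat build rn4, and the exon or UTR a probe lies in was not determined. Capitals mark the run of 50 bases that 2 probes of Ifi44 share.
Psmb8, chr20:4787980-4788039, minus strand: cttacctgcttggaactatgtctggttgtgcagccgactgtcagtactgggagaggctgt
Psme2, chr15:33724194-33725273, minus strand: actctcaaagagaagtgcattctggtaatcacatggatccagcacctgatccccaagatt
Isg15, chr5:173034674-173034733, minus strand: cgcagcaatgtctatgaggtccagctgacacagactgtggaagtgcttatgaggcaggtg
Socs1, chr10:4820384-4820443, plus strand: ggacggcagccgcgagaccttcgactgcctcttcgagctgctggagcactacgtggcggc
Samhd1, probe used, chr3:147689427-147689486, minus strand: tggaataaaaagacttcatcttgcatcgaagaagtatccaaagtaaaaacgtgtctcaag
Samhd1, second probe, chr3:147712283-147713947, minus strand: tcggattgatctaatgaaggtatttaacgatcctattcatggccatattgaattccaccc
Ifi44, probe used, chr2:250046371-250046430, minus strand: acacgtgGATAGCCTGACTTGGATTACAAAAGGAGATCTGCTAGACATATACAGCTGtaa
Ifi44, probe 3, chr2:250046364-250046423, minus strand: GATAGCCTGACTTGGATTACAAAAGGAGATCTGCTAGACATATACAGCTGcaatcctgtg
The Psme2 probe and the second Samhd1 probe span more than 60 bases on the genome. The GC content of the members' probes lay between 28.3% and 68.3%, with a median of 45% against 43.3% for all probes, and the Socs1 probe had the highest.

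Levels are log2 processed signal relative to the array's 75th percentile, so a level of 0 equals that percentile, and levels of different genes are not compared. Of the 43 members with a probe, 39 were well above background on all 18 arrays, and Oas1b and Oasl, on 3 and 5 arrays, did not pass the filter. Mx1 was well above background on 1 of the 3 controls, and Socs1 on 2 of the 3 arrays of each of days 1, 2 and 3. Between 55.2% and 69.6% of all probes passed that detection call on each array, no probe was saturated, and the 3 controls had the lowest 75th percentiles (180.7 to 229.2, against 251.9 to 452.4). The controls shared slide 1 with replicate 1 of day 1, while the arrays of days 2 and 4 had a scan day of their own. For these days scan day and treatment cannot be told apart against day 0. Podocyte and tubule markers (10 of 10 and 8 of 8) were well above background on all arrays; in such bulk RNA fewer cells of a type and less RNA per cell cannot be told apart.

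Most of the 41 tested members were higher on day 3 than in the controls, and fewer passed on the days before and after. On day 3, 32 members rose and 1, Socs1, fell (limma, adjusted p under 0.05 over all genes), against 21.7% of all genes tested that rose and 26% that fell. The median change of the members on day 3 was 1.31 on the log2 scale and that of all genes -0.02. On day 1, 10 rose and 1 fell (19.2% and 20.7% of all genes), on day 2, 9 and 1 (20.8% and 25.1%), on day 4, 8 and 3 (25.6% and 26.7%), and on day 5, 5 and 1 (20.9% and 23.4%). In either direction 39.9%, 45.9%, 47.7%, 52.2% and 44.3% of all genes passed on days 1 to 5. The shares of members that rose on days 1, 2, 4 and 5 lay near those of all genes or below them. The median change was 0.46, 0.57, 0.22 and 0.28 on these days, and single arrays moved it. It was 0.11 on day 1 without its replicate 4, and 0.10 or 0.50 on day 4 without its replicate 2 or 1. On day 5 it was 0.14 or 0.46 without its replicate 5 or 4. Scaling moved these counts: with arrays scaled to their median, members higher and lower were 19 and 1, 23 and 1, 34 and 0, 14 and 2, and 20 and 0 on days 1 to 5. Of all genes, 35.6%, 39%, 37.9%, 42% and 41.3% were then higher. With arrays scaled to 12 reference genes, members higher and lower were 3 and 2, 4 and 2, 18 and 1, 2 and 11, and 3 and 2. The shares of all genes that were higher were then 4.96%, 8.63%, 9.94%, 7.6% and 6.76%. On day 4, quantile normalization gave 4 and 3 members, with 25.3% of all genes higher. The median of all genes stood 0.37 to 0.49 above the controls with scaling to the median. With scaling to reference genes it lay between -0.52 and -0.32. Over the 6 days, 25 of 41 members changed by the moderated F-test, against 53.1% of all genes.

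**Figure D1:**
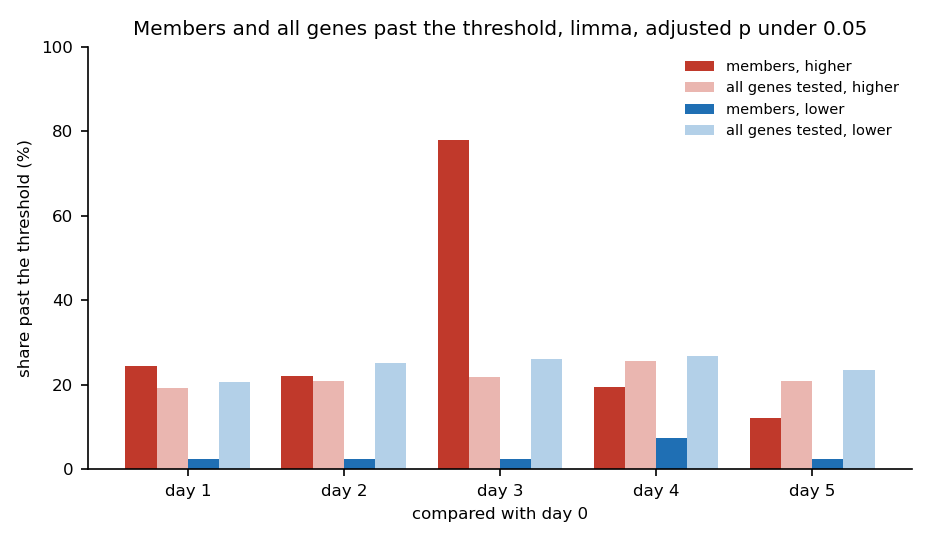
Bars give the percentage of the 41 tested members and of the 23212 genes tested that were higher (red) or lower (blue) than on day 0 by limma at an adjusted p under 0.05; dark bars are the members, pale bars all genes. The dark red bar of day 3 (32 of 41 members) stands far above the pale one (21.7%), which is not so on the other days.

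A count of members whose arrays did not overlap gave a second view. On day 3, 31 of 41 members had every array above every control, against 26.2% of all genes. The number was 12 on day 1 (27.4%), 24 on day 2 (27.9%), 9 on day 4 (28.8%) and 11 on day 5 (24.9%). On day 2 more members were thus free of overlap than passed the test. Every array lay below every control in 1, 3, 1, 4 and 2 members on days 1 to 5, against 23.8%, 29.9%, 30%, 30% and 27.7% of all genes. The highest of the 6 daily means lay on day 3 in 38 of 41 members, against 12.8% of all genes; the 3 others were Mx2 and Socs1, highest in the controls, and Tapbp, highest on day 1. The changes of the 5 days share the same 3 controls and are not independent of each other.

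The day 3 result depended on how slides were treated. No slide held both controls and day 3 arrays. With slide as a fixed block, day 3 was tied to day 0 only through replicate 1 of day 1 and slide 2, which days 1 and 3 shared: Rsad2 alone still passed (2.10, adjusted p = 0.034), the members' median was 0.50, and 4% of all genes rose. On slide 1 itself, replicate 1 of day 1 differed from the control mean by a median of 0.10 over the members. With slide as a random block, 32 members rose and 1 fell on day 3, with a median of 1.32 and 22.5% of all genes higher. That fit also compares days across slides. With only arrays of 1 scan day, 30 members rose and 0 fell, with 18.1% of all genes higher.

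**Figure D2:**
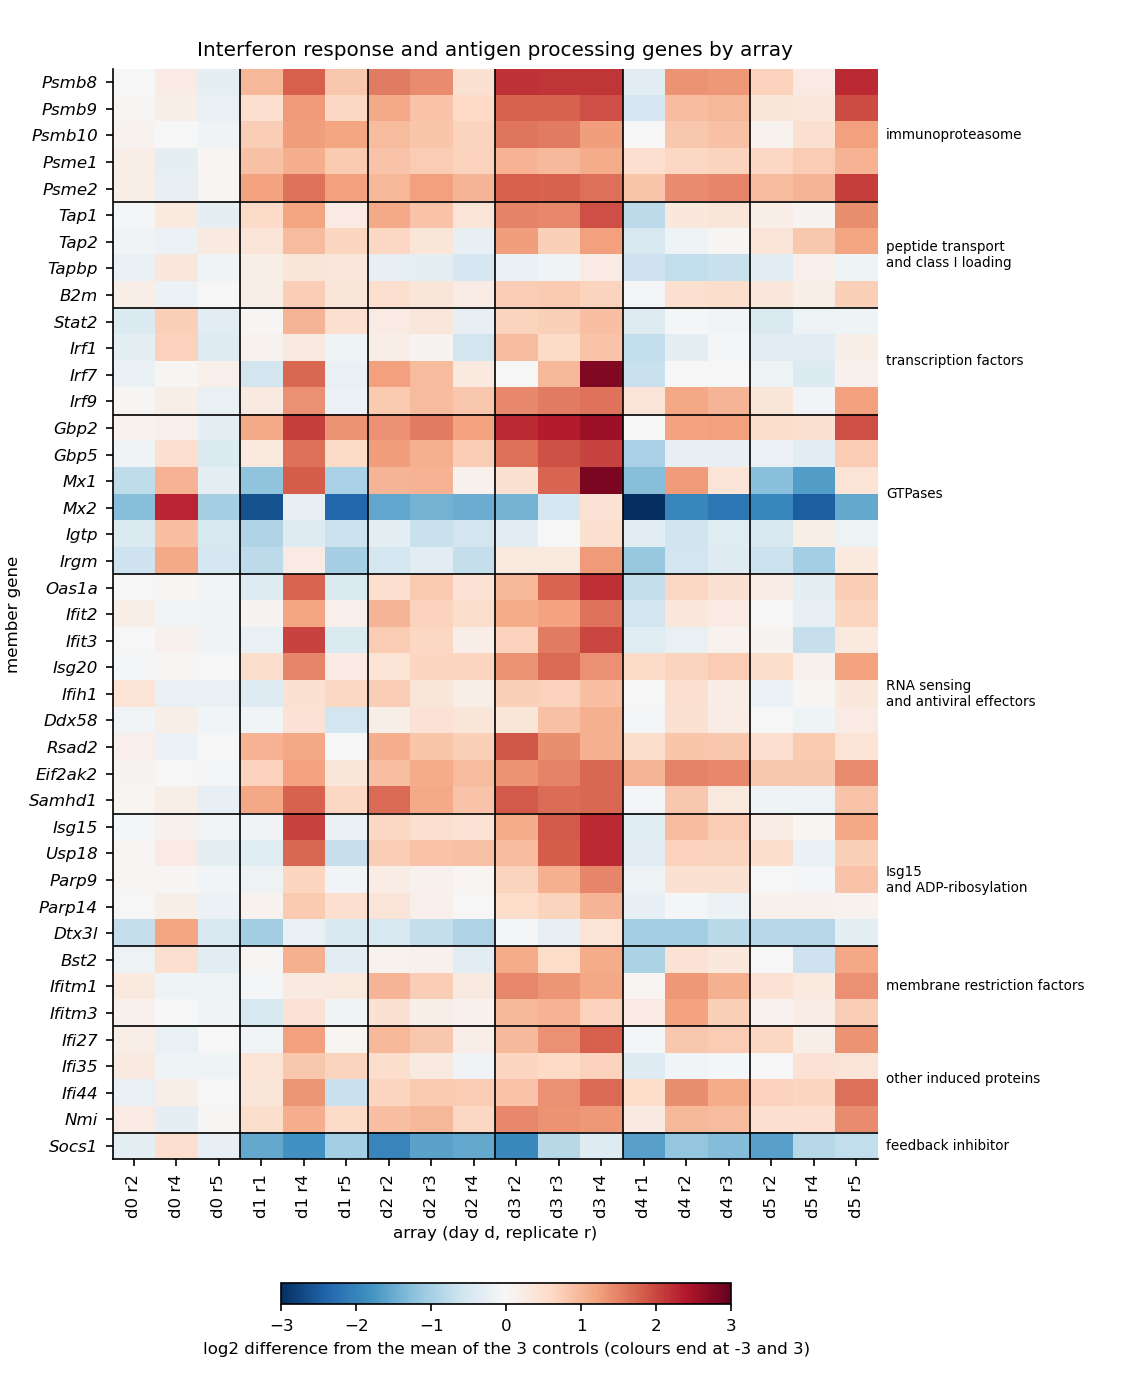
Each row is a member, grouped by role, and each column an array; colour gives the log2 difference from the mean of the 3 controls, with red above and blue below. The 3 day 3 columns are red in most rows, replicate 4 of day 1 and replicate 5 of day 5 stand out from their day, and the rows of Mx2 and Socs1 are blue on most treated arrays.

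The immunoproteasome genes rose together. Psmb8, Psmb9 and Psmb10 encode the catalytic subunits that replace the constitutive ones, and Psme1 and Psme2 the PA28 activator that caps the proteasome. On day 3 all 5 rose, by a median of 1.74. The level of Psmb8 was 1.00, 1.23 and 0.71 on the controls and 3.16, 3.13 and 3.12 on day 3. The day 3 arrays were nearly equal and all lay above the controls, a change of 2.16 ± 0.50 SE (4.46-fold, adjusted p = 0.0033). Its other levels were 1.98, 2.77 and 1.79 on day 1, 2.55, 2.40 and 1.44 on day 2, 0.65, 2.34 and 2.27 on day 4, and 1.67, 1.22 and 3.21 on day 5. Replicate 1 of day 4 lay below every control, while replicate 5 of day 5 lay above every day 3 array. None of these 4 days passed for Psmb8 (1.20, 1.15, 0.77 and 1.05, adjusted p between 0.069 and 0.21).

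Psmb9 had levels of 3.1, 3.27 and 2.86 on the controls and 4.85, 4.84 and 5.01 on day 3, again without overlap (1.83 ± 0.42, adjusted p = 0.0032). It passed on no other day. Psmb10 rose on days 1, 2 and 3, by 1.05, 0.81 and 1.48 (adjusted p = 0.0093, 0.025 and 0.00099). The activator subunits rose on all 5 days. Psme2 had levels of 2.95, 2.52 and 2.82 on the controls. It stood at 3.98, 4.38 and 4.00 on day 1, 3.77, 4.00 and 3.78 on day 2, and 4.56, 4.54 and 4.42 on day 3. On day 4 the levels were 3.59, 4.17 and 4.23, and on day 5 3.71, 3.79 and 4.83. Every treated array lay above every control, and the changes were 1.36, 1.09, 1.74, 1.23 and 1.35 on days 1 to 5 (adjusted p between 0.00054 and 0.0044). Psme1 rose by 0.92, 0.77, 1.04, 0.60 and 0.81 (adjusted p between 0.00054 and 0.0049).

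The constitutive subunits that these replace also rose. Psmb6 changed by 1.08, 0.91, 1.17, 1.38 and 1.22 on days 1 to 5 and Psmb7 by 1.07, 0.85, 1.16, 1.16 and 1.20, past the threshold on every day. Psmb5 changed by 0.65, 0.23, 0.46, 0.67 and 0.63 and passed on all days but day 2, and Psme3, another activator, rose on all 5 days, by 0.53 on day 3. On day 3 the change of the induced subunit exceeded that of its constitutive counterpart on every array: by 1.63 to 1.79 for Psmb8 over Psmb5, 0.46 to 0.90 for Psmb9 over Psmb6, and 0.14 to 0.41 for Psmb10 over Psmb7. The mean over the 3 pairs was 0.89 ± 0.05 (SD, n = 3) on day 3. It was 0.08 ± 0.35 on day 1, 0.28 ± 0.37 on day 2, -0.46 ± 0.77 on day 4 and -0.17 ± 0.84 on day 5, where the spread between arrays exceeded the value. These are log2 differences of changes, with no test, and the day 3 value was 0.53 with slide as a fixed block.

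**Figure D3:**
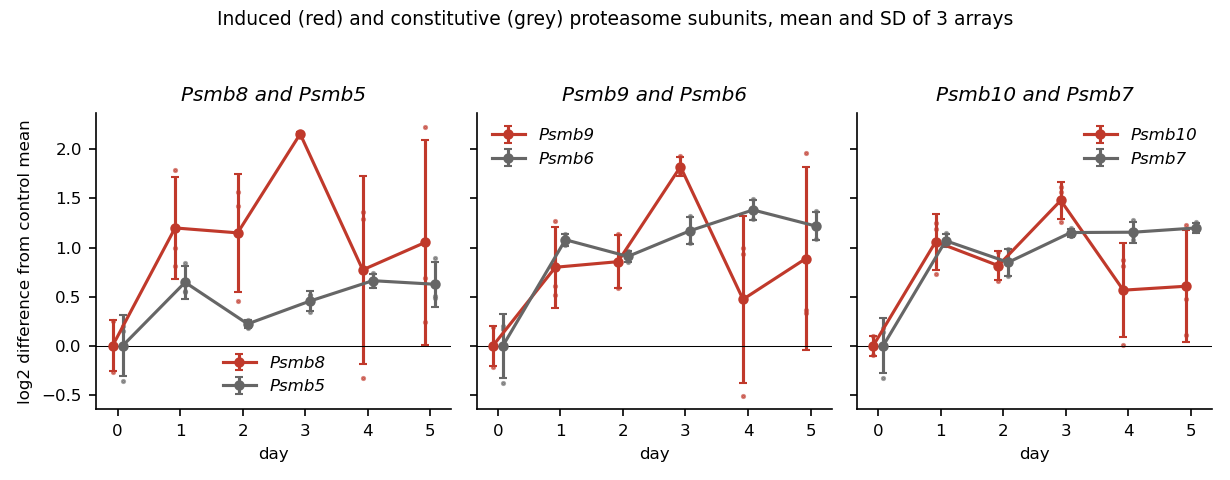
Log2 difference from the control mean by day for the induced (red) and the constitutive (grey) subunit of each pair; large points are means of 3 arrays, bars their SD, small points arrays. Red lies above grey on day 3 in all 3 panels, while on days 4 and 5 the red arrays are spread widely and the grey ones are not.

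Of the 4 genes of peptide transport and loading, 3 rose on day 3. The transporter subunit Tap1 had levels of -1.41, -1.07 and -1.64 on the controls and 0.11, 0.07 and 0.55 on day 3, which did not overlap (1.61 ± 0.38, 3.06-fold, adjusted p = 0.0034). It passed on no other day, and on day 4 its mean was that of the controls (-0.03). Tap2 rose on day 3 by 1.07 and on day 5 by 0.79 (adjusted p = 0.0048 and 0.026). B2m, the constant chain of MHC class I, rose by 0.73 ± 0.20 on day 3 (adjusted p = 0.0075), from 8.70, 8.34 and 8.49 on the controls to 9.25, 9.30 and 9.17, and its 3 other probes gave 0.75 to 0.93. Tapbp, the tapasin that holds class I molecules at the transporter, had a change of -0.03 on day 3 (adjusted p = 0.91). On day 4 it fell by 0.67 (adjusted p = 0.0057), with levels of 0.68, 0.55 and 0.62 against 1.06, 1.63 and 1.18 on the controls. Of 15 genes of the rat class I region named RT1, 6 rose on day 3 and none fell, against 21.7% and 26% of all genes. RT1-N3 rose by 2.20 and RT1-N1 by 1.83, chosen after their values were seen. On day 4 none rose and 4 fell, against 25.6% and 26.7% of all genes, so the share that fell was near that of all genes. The RT1 genes are near-identical copies, so which copy a probe read is uncertain.

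Among the transcription factors, 3 of 4 tested members rose on day 3 and none passed on another day. Irf9, the DNA-binding partner of Stat2, had levels of -0.93, -0.79 and -1.18 on the controls and 0.47, 0.60 and 0.66 on day 3, with no overlap (1.54 ± 0.36, 2.91-fold, adjusted p = 0.0032). Stat2 and Irf1 rose by 0.76 and 0.78 (limma, adjusted p = 0.039 and 0.035), but replicate 4 of the controls lay within their day 3 arrays. Their calls were lost in 13 and 11 of 31 alternative settings. Stat2 read -3.26, -2.12 and -3.15 on the controls and -2.18, -2.13 and -1.93 on day 3, and with slide as a fixed block its change was -0.02. Irf7, the factor that amplifies type I interferon, read 1.45, 1.68 and 1.79 on the controls and 1.63, 2.63 and 4.41 on day 3. Its day 3 arrays ran from the level of the controls to the highest of all 18, and the change of 1.25 ± 0.60 did not pass (adjusted p = 0.10).

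**Figure D4:**
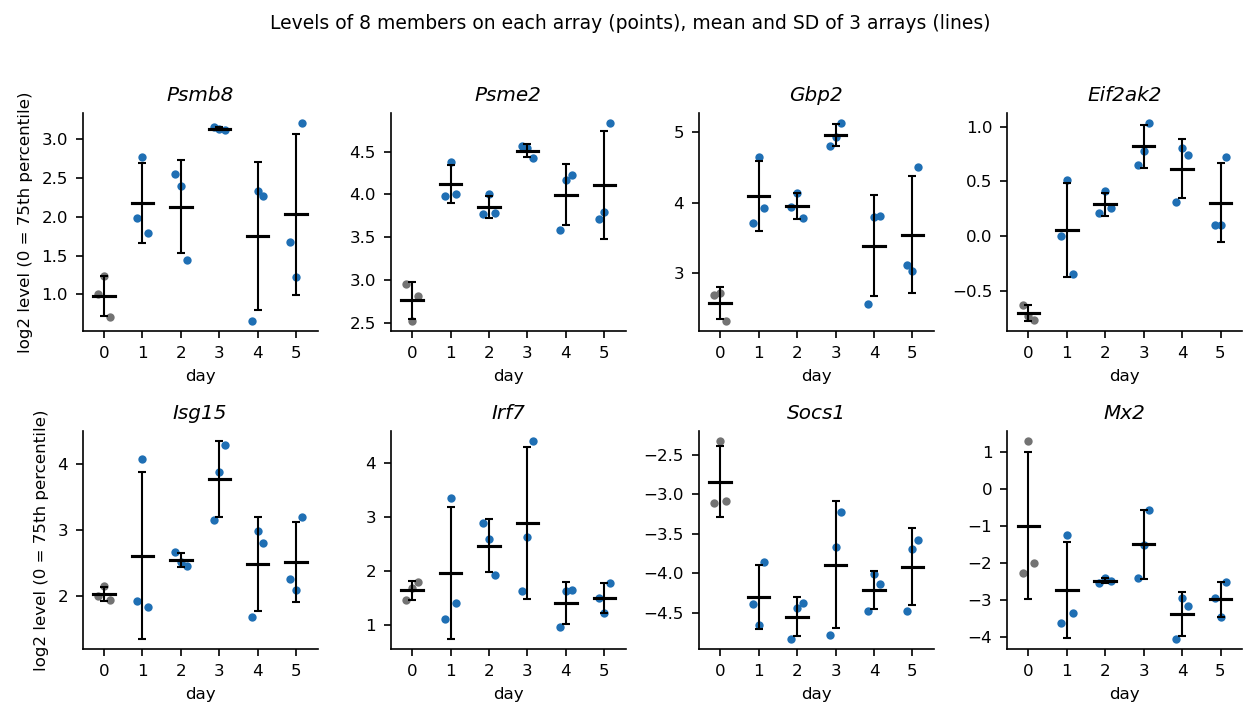
Log2 level (0 is the array's 75th percentile) of 8 members by day; points are arrays, grey for the controls, and lines mark mean and SD of 3 arrays, with a separate vertical scale for each gene. The day 3 points of Psmb8 coincide, those of Irf7 span from 1.63 to 4.41, and Socs1 lies below its controls on every treated array.

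The GTPases did not move as a group. Gbp2 and Gbp5, guanylate-binding proteins that act against intracellular pathogens, rose on day 3. Gbp2 had the largest change of all members on day 3, from 2.69, 2.72 and 2.31 on the controls to 4.81, 4.94 and 5.13, with no overlap (2.39 ± 0.39, 5.23-fold, adjusted p = 0.00065). It also rose on days 1 and 2, by 1.52 and 1.38 (adjusted p = 0.0089 and 0.010). Gbp5 rose on days 2 and 3, by 1.03 and 1.86 (adjusted p = 0.031 and 0.0013). The antiviral dynamin-like proteins Mx1 and Mx2 and the immunity-related GTPases Igtp and Irgm rose on no day. Mx2 read -2.28, 1.30 and -2.0 on the controls, so that replicate 4 lay above all 17 other arrays. It fell by 2.39 ± 0.80 on day 4 (adjusted p = 0.021), with levels of -4.06, -2.94 and -3.16. Igtp (-0.64, 0.70 and -0.69) and Irgm (-1.49, 0.25 and -1.38) were highest in the same control. Without that control, Irgm passed as higher on day 3 (1.18, limma, adjusted p = 0.046). Mx1 read -5.29, -3.48 and -4.78 on the controls and -4.07, -2.77 and -1.69 on day 3 (1.67 ± 0.87, adjusted p = 0.12).

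All 9 tested members of RNA sensing and antiviral defence rose on day 3, by a median of 1.44. When all probes of a gene were averaged, 3 of the 9 no longer passed: Samhd1 (0.61, adjusted p = 0.143), Ifit2 (0.70, adjusted p = 0.0794) and Ddx58 (0.50, adjusted p = 0.0783). The cytosolic RNA sensors Ifih1 and Ddx58 rose least, by 0.76 and 0.77 (limma, adjusted p = 0.025 and 0.015). Their calls were lost in 8 and 7 of 31 alternative settings. Eif2ak2, the kinase that stops translation on double-stranded RNA, was the only one of the 9 to rise on all 5 days. It read -0.62, -0.72 and -0.76 on the controls, 0.65, 0.78 and 1.03 on day 3 and 0.31, 0.80 and 0.74 on day 4, and every treated array lay above the controls. Its changes were 0.76, 0.99, 1.52, 1.32 and 1.01 (limma, adjusted p between 0.00043 and 0.016). That holds for the probe used. The second Eif2ak2 probe, well above background on all 18 arrays, gave 0.10, -0.04, 0.70, 0.27 and 0.05 on days 1 to 5. Samhd1, which degrades the nucleotides that viruses need, rose on days 1, 2 and 3 by 1.19, 1.23 and 1.75 (limma, adjusted p = 0.012, 0.0078 and 0.0010). It did not pass on days 4 and 5. Its second probe, well above background on 6 arrays, gave -0.66, -1.08 and -0.53 on days 1, 2 and 3. Rsad2, the enzyme viperin, rose on days 1 to 4, by 0.73, 0.88, 1.44 and 0.72 (limma, adjusted p between 0.0011 and 0.043). However, 1 array of day 1 lay among the controls. The second Rsad2 probe, well above background on 16 arrays, gave -0.19, 0.04, 0.86 and -0.28 on days 1 to 4. Isg20, an RNA exonuclease, rose on days 1 and 3 by 0.75 and 1.47 (adjusted p = 0.047 and 0.0012), and its 3 controls differed least of all members (-0.57, -0.49 and -0.52).

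Oas1a, Ifit2 and Ifit3 rose on day 3 alone. Oas1a makes the 2-5A signal that activates RNase L. It read 1.96, 2.01 and 1.86 on the controls and 2.94, 3.69 and 4.13 on day 3 (1.64 ± 0.51, adjusted p = 0.015). On day 1 it read 1.55, 3.69 and 1.51, so that replicate 4 alone was high and the other 2 lay below the controls. Ifit3, which binds viral RNA ends with its relatives, followed the same pattern: -3.75, -3.62 and -3.85 on the controls, -3.96, -1.71 and -4.17 on day 1, and -3.05, -2.18 and -1.74 on day 3 (1.41 ± 0.50, adjusted p = 0.031). The Ifit3 call was lost in 11 of 31 alternative settings, among them only arrays of 1 scan day (limma, adjusted p = 0.067). Ifit2 rose by 1.32 ± 0.32 (limma, adjusted p = 0.0039) with the probe used.

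Of the 5 genes of Isg15 conjugation and ADP-ribosylation, 4 rose on day 3 and none passed on another day. Isg15, the ubiquitin-like protein attached to others after interferon, read 2.00, 2.16 and 1.95 on the controls and 3.15, 3.88 and 4.28 on day 3, without overlap (1.73 ± 0.51, 3.32-fold, adjusted p = 0.012). On day 1 it read 1.93, 4.07 and 1.84: replicate 4 reached the day 3 levels and the others lay just below the controls. Usp18, which removes Isg15 and also damps the type I receptor, rose by 1.66 (adjusted p = 0.016). Parp9 and Parp14, ADP-ribosyltransferase family members, rose by 1.07 and 0.74 (adjusted p = 0.0059 and 0.0043). Dtx3l, the ubiquitin ligase partner of Parp9, had a change of 0.05 on day 3 (adjusted p = 0.93), and its controls read -3.68, -1.78 and -3.46.

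Among the membrane restriction factors, Ifitm1 and Ifitm3, which hinder virus entry, rose on days 3 and 4. Ifitm1 changed by 1.31 and 0.81 (adjusted p = 0.00465 and 0.047, the latter with 1 array among the controls) and Ifitm3 by 0.90 and 0.72 (adjusted p = 0.0099 and 0.028). Bst2, the tetherin that holds budding virus, had a change of 0.92 ± 0.46 on day 3 that did not pass (adjusted p = 0.11), with levels of 3.64, 3.08 and 3.66 against 2.38, 3.03 and 2.21. Of the other induced proteins, Ifi27, Ifi35, Ifi44 and Nmi rose on day 3, by 1.38, 0.64, 1.31 and 1.36. Nmi, an interferon-induced adaptor protein, rose on all 5 days, by 0.74, 0.84, 1.36, 0.73 and 0.82 (adjusted p between 0.0012 and 0.036). Ifi44 also rose on day 4, by 1.02 (adjusted p = 0.047), and Ifi35, a partner of Nmi, on day 1, by 0.63 (adjusted p = 0.019).

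Socs1 was the only member that fell on all 5 days, while Mx2 and Tapbp fell on day 4 only. Socs1 read -3.11, -2.33 and -3.09 on the controls. On day 1 it stood at -4.38, -4.65 and -3.86, on day 2 at -4.83, -4.44 and -4.37, and on day 3 at -4.78, -3.67 and -3.22. On day 4 the levels were -4.48, -4.01 and -4.14, and on day 5 -4.47, -3.69 and -3.58. Every treated array lay below every control, and replicate 4 of day 3 came nearest to them. By limma, Socs1 fell by 1.45, 1.70, 1.05, 1.37 and 1.07 on days 1 to 5 (adjusted p = 0.0082, 0.0025, 0.027, 0.0061 and 0.027). The signal was near background, since 1 array on each of days 1, 2 and 3 was not well above it, and after the default normexp background correction, which failed on 1 array of day 1 and 1 of day 5, its changes on days 1 and 5 were 0.15 and 0.11; with repaired parameters they were -0.57 and -0.51. On day 3 its change kept its sign but no longer passed after median scaling (-0.66), after quantile normalization (-0.59) or with only the 6 arrays compared. The same held for the default normexp correction (-0.53), only arrays of 1 scan day, slide as a fixed block (-1.51), and the fits without control replicate 4 (-0.79) or without replicate 2 of day 3 (-0.60).

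Counted over days with the probe used, 4 members rose on all 5 days (Psme1, Psme2, Eif2ak2 and Nmi) and 1 on 4 days (Rsad2). Another 3 rose on 3 days (Psmb10, Gbp2 and Samhd1), 7 on 2 days and 17 on 1 day. The other 9 rose on none: Tapbp, Irf7, Mx1, Mx2, Bst2, Dtx3l, Igtp, Irgm and Socs1. Between 19.2% and 25.6% of all genes rose on each day, against the same 3 controls. How many of all genes rose on several days was not determined, so whether these counts are particular to the members is not known.

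Between treated days no member passed. For day 3 against day 1, which share a scan day, 0 members passed (1 gene of all 23212, 0.00431%), 22 had an unadjusted p under 0.05 as higher against 5.79% of all genes, and 40 of 41 differences were positive with a median of 0.84. Without overlap, 17 members were higher on day 3 (10.1% of all genes). The smallest p was that of Ifitm3, 0.95 ± 0.26 (adjusted p = 0.155). For day 5 against day 3, 0 members passed (2 of all genes, 0.00862%), all 41 differences were negative, the median was -0.85, and 25 had an unadjusted p under 0.05 as lower (6.74%). In 22 members every day 5 array lay below every day 3 array (6.12%). Gbp5 and Samhd1 had the smallest p, at -1.77 ± 0.36 and -1.56 ± 0.33 (limma, adjusted p = 0.089 and 0.093). Once replicate 5 of day 5 was left out, 10 members passed as lower, and 960 of all genes passed in either direction.

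Values within a slide, which hold no slide difference, ran the same way. On slide 2, the mean of replicates 2 and 3 of day 3 exceeded that of replicates 4 and 5 of day 1 in 36 of 41 members, by a median of 0.56, although replicate 4 was the high array of day 1; of all genes 44.1% were higher. On slide 3 the mean of the 3 day 5 arrays lay below replicate 4 of day 3 in all 41 members, with a median difference of -1.03, while 57.3% of all genes were higher; that replicate was the highest day 3 array in 29 members. Day 4 against day 2 gave 0 members (23 of all genes, 0.0991%) and a median of -0.23. In 11 members every day 4 array lay below every day 2 array (10.3%), and there were 4 members at an unadjusted p under 0.05 as lower (6.07%), among them Gbp5 (-1.52 ± 0.36, adjusted p = 0.11). Day 5 against day 1 gave 0 members (28 of all genes, 0.121%), a median of -0.10 and 3 members at an unadjusted p under 0.05 as lower (4.87%). In 2 members the day 5 arrays all lay below those of day 1 (7.13%).

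Single arrays stood apart on several days, and most members moved with them. Replicate 4 of day 1 was the highest array of its day in 38 of 41 members (29.6% of all genes) and had a median change of 1.15 over the members, against 0.10 and 0.15 on replicates 1 and 5. Replicate 5 of day 5 was highest in 36 (32.1%), at 0.75 against 0.11 and 0.10. Replicate 1 of day 4 was lowest in 38 (33.5%), at -0.33 against 0.48 and 0.41. The day 3 arrays lay closer together, at 0.98, 1.32 and 1.30, with replicate 4 highest in 29 (38.3%) and the highest of all 18 arrays in 19. Replicate 4 of day 1 also had the fewest probes well above background, 22649. Among the controls, replicate 4 was highest in 25 members (35% of all genes) and lowest in 9 (53.5%). That control was the highest of all 18 arrays in 4 members.

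The median SD of the 3 day 3 arrays was 0.24 over the members and 0.22 over all genes. By role it was 0.07 for the immunoproteasome genes, 0.16 for the transcription factors, 0.18 for the membrane factors, 0.24 for the other induced proteins and 0.25 for transport and loading. It was 0.27 for RNA sensing and antiviral defence, 0.39 for Isg15 and ADP-ribosylation and 0.48 for the GTPases, and these differences were not tested. The lowest SD was that of Psmb8 (0.02) and the highest that of Irf7 (1.41), followed by Mx1 (1.19). Replicate 4 was the highest day 3 array in 29 members, of every role. Replicate 2 was highest in 9 (Psmb8, Psmb10, Psme2, Tap2, Irf1, Rsad2, Nmi, Ifitm1 and Samhd1) and replicate 3 in 3 (B2m, Isg20 and Ifitm3).

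Leaving out 1 array changed several counts. On day 3 between 25 and 33 members passed, the lowest without replicate 4 of day 3. In that fit 10536 of all genes passed in either direction, against 11079 with all arrays. On day 1 the 11 calls became 7 without control replicate 4 and 6 without replicate 4 of day 1. Of all genes 4607 and 4908 passed in these fits, against 9270 with all arrays. On day 4, 11 became 5 without control replicate 4 and 7 without control replicate 5. The count was 6 without replicate 2 or replicate 3 of day 4. Of all genes 9337, 11782, 10306 and 10223 passed in these fits, against 12122 with all arrays. Scaling to reference genes turned the day 4 split of the members from 8 higher and 3 lower to 2 and 11. On day 5, 6 became 3 without control replicate 4 and 10 without replicate 4 of day 1. Of all genes 6529 and 9966 passed in these fits, against 10274 with all arrays.

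Among genes upstream of the members, the interferon gamma receptor chain Ifngr2 rose on all 5 days. It read 1.68, 1.11 and 1.56 on the controls and 2.58, 2.36 and 2.40 on day 3, without overlap, and rose by 1.00 ± 0.16 (limma, adjusted p = 0.00065). Ifngr1, the other chain, had changes between -0.82 and 0.16 and passed on no day, as did Jak1 and Jak2. Ifnar1, of the type I receptor, and the kinase Tyk2 fell on day 4 only, by 0.40 and 0.87. The probe of Ifnb1 was well above background on no array and that of Ifng on 4 of 18, and neither was tested. Ifnar2 had no probe.

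Of 40 other interferon-induced genes listed, 29 were tested; on day 3, 16 rose and 1 fell (Pml, at -1.51, named after its value was seen, with overlap between arrays). On days 1, 2, 4 and 5 the numbers were 7, 8, 7 and 5 higher and 1, 3, 3 and 1 lower. Of all genes, 21.7% rose and 26% fell on day 3. On days 1, 2, 4 and 5, 19.2%, 20.8%, 25.6% and 20.9% of all genes rose. The shares that fell were 20.7%, 25.1%, 26.7% and 23.4%. Cxcl10, a chemokine for activated T cells, rose on all 5 days, by 3.13 ± 0.43 on day 3 (adjusted p = 0.00049). Cxcl9, a ligand of the same receptor, rose on day 3 alone (2.27 ± 0.53, adjusted p = 0.0035), and Cxcl11, the remaining ligand, had a change of -0.41 (adjusted p = 0.28).

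Most markers of leukocytes also rose on day 3, but they did not follow the members on every array. Of 20 macrophage markers 18 were tested, and 13, 16, 17, 4 and 3 rose on days 1 to 5, none fell. Of all genes, 19.2%, 20.8%, 21.7%, 25.6% and 20.9% rose on days 1 to 5. The summed level (log2) of the macrophage markers lay between 5.38 and 6.23 on the controls and between 8.58 and 8.83 on day 3. Cd163 was well above background on no array and Cd53 had no probe. Of 15 T and NK cell markers 12 were tested, and 2, 8, 10, 0 and 0 rose, with summed levels of 2.04 to 3.06 on the controls and 3.87 to 5.29 on day 3; Cd247 was well above background on no array. The marker lists also differed between arrays of a day. The median change of the macrophage markers was 2.37 on replicate 5 of day 5 against 0.39 and -0.07 on the others, and -0.17 on replicate 1 of day 4 against 1.87 and 1.43. On day 1 the macrophage median hardly differed between arrays (1.94, 2.21 and 1.93), while that of the T and NK cell markers was 0.79, 2.22 and 0.95, highest on the array where the members were highest. On day 3 the T and NK cell median was 2.43, 2.76 and 1.32, lowest on replicate 4, the array where most members were highest. Markers of glomerular cells moved as well: the mesangium median was -0.24, 0.97 and 0.69 on day 4 and 0.26, 0.15 and 1.02 on day 5, and the endothelium median -1.31, -0.70 and -0.63 on day 4. The part of these cells in the members' changes was not tested.

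**Figure D5:**
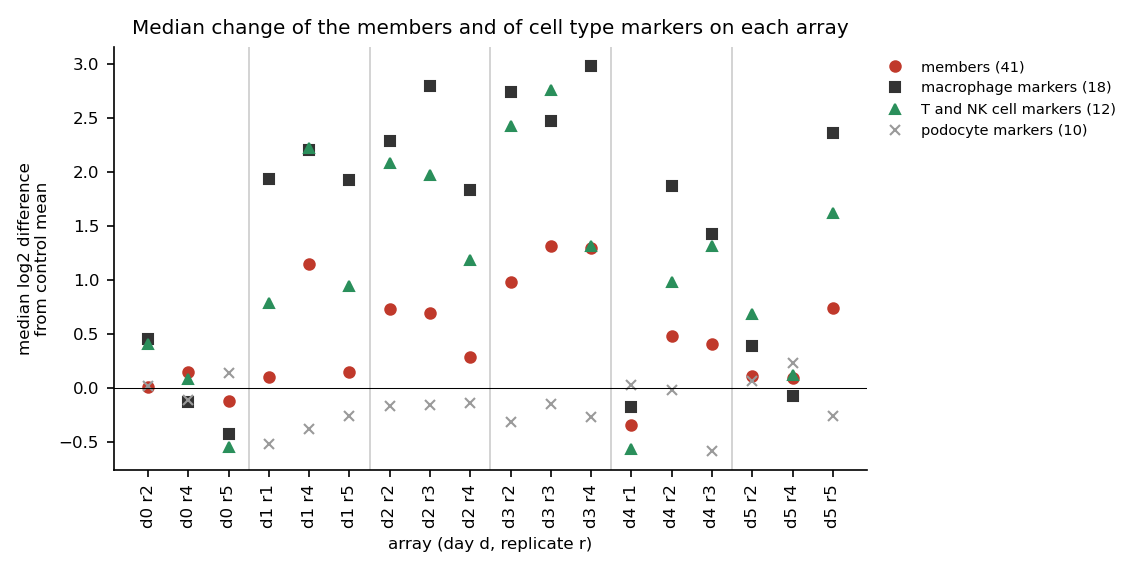
Median log2 difference from the control mean over the 41 members (red) and over markers of macrophages, T and NK cells and podocytes, for each array; vertical lines separate days. The members are near 0 on 2 arrays of day 1 on which the macrophage markers are near 1.9, and members and both leukocyte lists are high on replicate 5 of day 5 and low on replicate 1 of day 4.

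Many members are neighbours on the chromosome. Of 42 members with a position, 22 lay in 8 groups whose probes were at most 500 kb from the next (rn4). The largest held Tap2, Psmb8, Tap1, Psmb9 and Tapbp in 341 kb of the MHC on chromosome 20, of which 4 rose on day 3 and Tapbp did not. Psme1, Psme2 and Irf9 lay within 30.2 kb on chromosome 15, and all 3 rose. Gbp5 and Gbp2 (98.5 kb, chromosome 2) and Ifit2 and Ifit3 (9.97 kb, chromosome 1) rose as pairs. Parp9 and Parp14 rose on day 3 and Dtx3l, which lies between them in 144 kb of chromosome 11, did not; Ifitm1 and Ifitm3 rose and Irf7, in the same 302 kb of chromosome 1, did not pass. Mx1 and Mx2, within 131 kb on chromosome 11, both missed the threshold.

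Of the 11 members with more than 1 probe, several gave different values by probe. The second probe of Samhd1 printed above, well above background on 6 of 18 arrays, gave -0.53 on day 3 against 1.75 for the probe used, and the mean of both turned the change on days 4 and 5 to -1.37 and -1.01. The probes of Ifit2 gave 1.32 and 0.07, those of Eif2ak2 1.52 and 0.70, those of Usp18 1.66 and 0.93, and those of Rsad2 1.44 and 0.86. The 3 probes of Ifi44 gave 1.31, 1.28 and 1.31, of which 2 share the capitals above. By position on the transcript's strand, 6 second probes lay on the 5′ side of the probe used (Ifit2, Ddx58, Rsad2, Usp18, Bst2 and Samhd1), and all 6 had a lower day 3 change, with differences between -2.28 and -0.32. Of 7 on the 3′ side, 2 had a lower change, 1 of Ifi44 (difference -0.03) and that of Dtx3l (-0.78). The probe used was the brightest of its gene, and this description, made after the values were seen, was not tested.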

How the data were processed

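Total RNA of rat glomeruli was labelled with Cy3 and hybridised to 18 one-colour arrays, 3 a day. Per the file headers, the spot intensities (processed signal) were background-subtracted by Agilent Feature Extraction 10.7.3.1 with a grid of build rn4. The authors also deposited a table of log2 values, with medians of 5.49 (days 0, 2 and 4) and 5.31 (days 1, 3 and 5); it ranked probes as the intensities do, and its scaling is not given in the sources used here.

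Outlier spots (80 to 142 an array) and control spots were dropped. The log2 intensity minus the array's 75th percentile was used; probes well above background on all arrays of at least 1 day were kept, and a gene was read by its brightest probe. All 18 arrays were fitted with limma 3.58.1 in R 4.3.3 (lmFit, eBayes), with Benjamini-Hochberg adjustment over 23212 genes and a threshold of 0.05. Error terms are SE of the fit. The procedure was tested on simulated data. Arrays carry no read depth; their number limits precision.

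Any measured member could be named, and other genes only from set lists. The members and lists were chosen with earlier results of these data known. Slides, scan day, scaling, filters, probe rule, the value table, the replicate number and single arrays were varied.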

Additional observations from a re-analysis of the deposited data

How the results depend on the processing

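Counts are members that passed; the settings used above gave 11, 10, 33, 11 and 6 on days 1 to 5 and 25 over the 6 days. Normexp background correction could not be fitted properly on 2 arrays and gave 0, 1, 13, 2 and 0 on days 1 to 5 and 2 over the 6 days. Of all genes 28, 1488, 1548, 2614 and 55 then passed on days 1 to 5, and 855 over the 6 days. Repaired parameters, a setting chosen after seeing the data, gave 17, 20 and 13 on days 2, 4 and 5, with 14092, 14925 and 10984 of all genes. Median scaling gave 20, 24 and 20 on days 1, 2 and 5. Scaling to reference genes gave 5, 6 and 19 on days 1, 2 and 3, and quantile normalization 7 on day 4. With slide as a fixed block 3, 1 and 0 passed on days 1, 3 and 5, with 4107, 2910 and 103 of all genes. The mean pair difference on day 3 was then 0.53, and days 2 and 4 could not be estimated. With only the 6 arrays compared 7, 19 and 3 passed on days 1, 2 and 5, with 3304, 8678 and 4821 of all genes. For day 3 against day 1 that setting gave 1 member and 220 of all genes. The authors' value table gave 16 on day 2, with 8478 of all genes. On day 3 the other settings gave 28 to 34, and 16 of the 33 calls were kept in every alternative other than the fixed slide block and the unrepaired normexp. The cause of these shifts was not tested.

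The sign turned for Socs1 on days 1 and 5 (0.15 and 0.11, normexp), for Mx1 on days 2 and 4 (-0.46 and -0.47) and Stat2 on day 2 (-0.40, repaired normexp), for Ifih1 and Stat2 on day 3 (-0.23 and -0.025, fixed slide block), and for Samhd1 on days 4 and 5 (-1.37 and -1.01, mean of probes).

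Leaving out 1 array gave 6 to 12, 7 to 13, 25 to 33, 5 to 15 and 3 to 10 on days 1 to 5, 17 to 31 over the 6 days, 0 to 10 for day 5 against day 3, 0 for the other pairs of treated days, and a pair difference of 0.71 to 1.14. With the replicate number as a block, 11, 8, 28, 8 and 7 passed on days 1 to 5 and 14 over the 6 days. Of 27 pairs of arrays with the same number, 8 had a correlation over 0.1 (range -0.38 to 0.28). None of the 18 arrays correlated best with one of its own number. Other pairs ranged from -0.66 to 0.54, so these values cannot show whether equal numbers mean a common origin. The labels do not say. A search of promoters for motifs was not run. Signal near background limits Mx1 and Socs1.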
